A study of Mus musculus with 12 samples.

Results

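The immediate early genes examined here are 10 genes whose transcription starts within minutes of a stimulus: Fos, Fosb, Junb, Egr1, Egr2, Egr3, Egr4, Arc, Nr4a1 and Ier2. They were picked by symbol as activity-induced factors, and all 10 were found, each on 1 line of a table of 24570 named genes. Expression had been measured in whole retina with 1 array per mouse, in 6 male C57BL6/J mice made diabetic by 1 intraperitoneal dose of streptozotocin (160 mg/kg), a toxin of the insulin-producing beta cells, and in 6 non-diabetic C57BL6/J mice that served as controls. The dose was given at 8 weeks of age and 24 to 26 g body weight, hyperglycaemia above 15 mM was required after 7 days, and the retinas were taken at 6 weeks. The sample labels count these weeks from the induction of diabetes, whereas the series text gives 6 weeks as the age of the diabetic animals. The time of day, the light conditions at death and the interval between death and freezing of the eyes are not stated in the labels.

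Immediate early genes need no newly made protein for their induction. In neurons, calcium entry and kinase cascades activate factors already bound at their promoters, chiefly CREB at cyclic AMP response elements (CRE) and SRF with its ELK partners at CArG boxes, and the messages are short-lived. Fos, Fosb and Junb are subunits of the AP-1 factor, the Egr genes encode zinc finger factors, Nr4a1 encodes an orphan nuclear receptor, Arc encodes a protein of the postsynaptic density that removes AMPA receptors, and Ier2 encodes a small nuclear protein. In the retina, light and excitatory transmission are known to induce several of them, chiefly in the inner layers.

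Values were log2 RMA values (robust multi-array average), which ran from 5.07 to 14.10 with a median of 5.73 on every array. The labelled tissue was borne out by its markers: 5 of 5 rod and 5 of 5 bipolar cell markers lay above that median, with rod means from 12.48 to 12.58 in diabetic and from 12.51 to 12.58 in control retinas. The means of 13 marker lists, lens, pigment epithelium and blood among them, gave exact permutation p-values (two-sided) of 0.0216 or more, with a smallest adjusted p of 0.267. The smallest was that of cones, at 10.15 in diabetic and 10.27 in control retinas. Of the single markers in all 13 lists 2 passed the test over all genes, which 3.24% of all genes passed. Both were lower in diabetic retinas and both by more than Arc. The cone arrestin gene Arr3, 1 of 5 cone markers, changed by -0.30 (limma, adjusted p = 0.0348). The pericyte and smooth muscle actin gene Acta2, 1 of 4 pericyte markers, changed by -0.21 (limma, adjusted p = 0.0367). Their part in the results on the 10 genes was not tested. Lens and pigment epithelium markers were both highest in diabetic 6 (means 7.69 and 7.11). The animals carry label numbers of unstated meaning whose ranges do not overlap between the groups, so a cohort or day behind them cannot be told apart from diabetes.

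Arc was the 1 of 10 immediate early genes past the test over all genes, with a lower level in diabetic than in control retinas, but it stood close to the threshold (limma, adjusted p = 0.0462) and was called in only 5 of 19 alternatives. Among these alternatives the exact permutation test called 0 of 24570 genes. It could call none, since its smallest p of 0.00216 became 0.0762 after adjustment. With a trend and robust variance model Fos passed in place of Arc. Nr4a1, Egr1 and Fos had larger negative changes that missed it (limma, adjusted p from 0.0598 to 0.122), and the remaining 6 genes differed by at most 0.07 on the log2 scale. Of all genes, 1.77% passed the same test as lower in diabetic retinas, 1.47% as higher and 3.24% in either direction. In all, 8 of the 10 changes were negative, against 51.8% of all genes, and the median change of the 10 was -0.05, against -0.0018 over all genes. Without a correction for multiple testing, 5 of the 10 had a limma p under 0.05, as had 21.0% of all genes. In a whole retina, fewer cells of a type and less message per cell cannot be told apart.

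**Figure D1:**
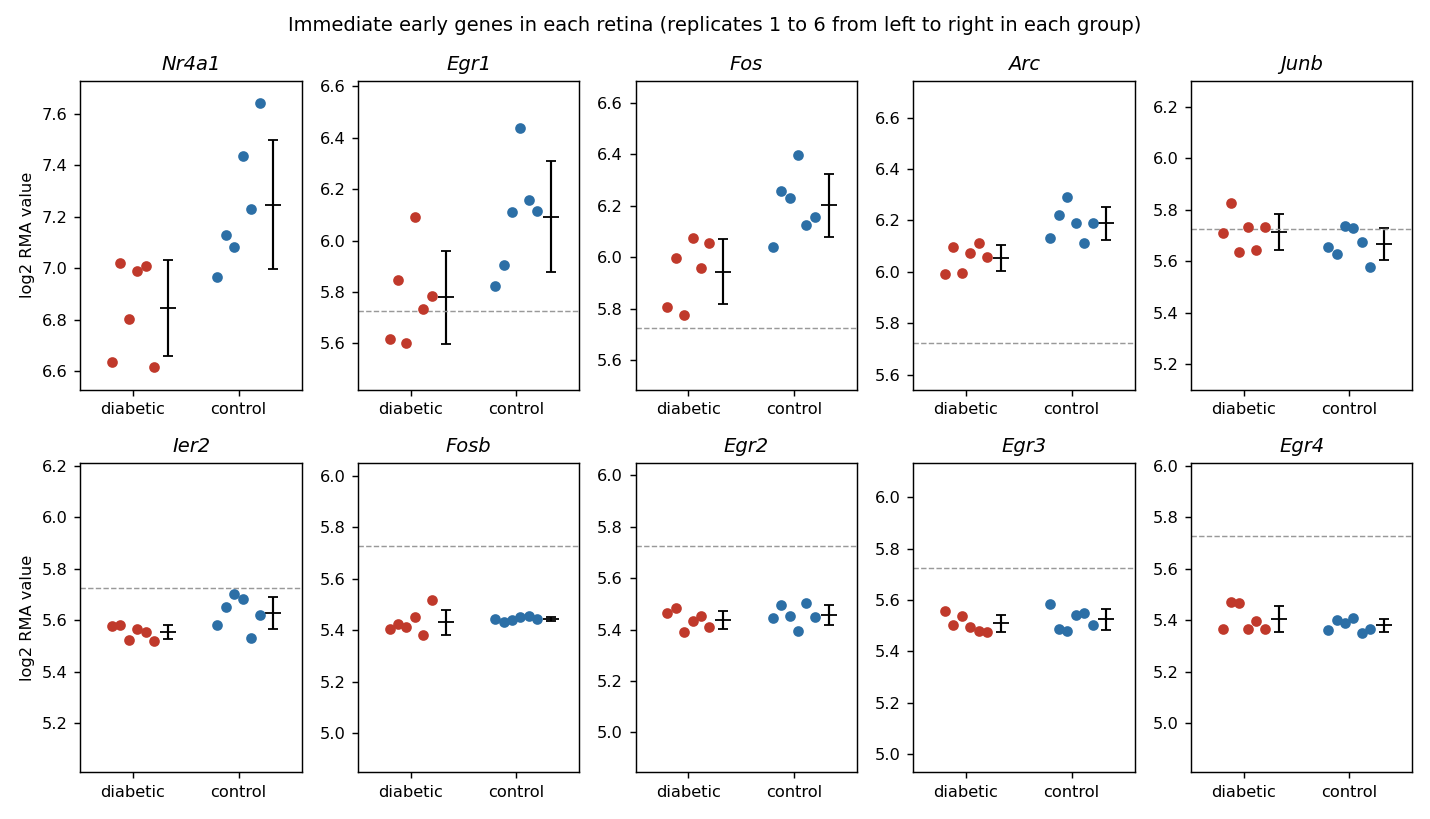
Log2 RMA values of the 10 genes in each retina, with 6 diabetic retinas at the left and 6 control retinas at the right of each panel, and the mean and SD as a bar beside the points. The array median of 5.73 is a dashed line, which lies below the range of the Nr4a1 panel and is not seen there. All panels span the same number of log2 units. Nr4a1, Egr1, Fos and Arc sit lower in diabetic retinas, while the diabetic and control points of Junb, Fosb, Egr2, Egr3 and Egr4 overlap over most of their range.

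To set the sequences beside the values, the promoters of 2 members with larger negative differences that missed the threshold (Nr4a1 and Fos) and of 2 with differences near 0 (Junb and Egr4) are shown, as the 250 bases before the RefSeq start site. RefSeq windows of assembly GRCm38.p6 were found for 6 members (Fos, Fosb, Junb, Egr2, Egr4 and Nr4a1), with 5 windows for Egr2 and 1 for each of the others; Arc is not among them. Capitals mark the CRE core TGACG on either strand (CGTCA where it lies on the other strand) and each sequence runs 5′ to 3′ on the strand of its gene. Nr4a1 lies at chr15:101266596-101266845 on the plus strand and Fos at chr12:85473640-85473889 on the plus strand. Junb lies at chr8:84978749-84978998 on the minus strand and Egr4 at chr6:85513590-85513839 on the minus strand.
Nr4a1: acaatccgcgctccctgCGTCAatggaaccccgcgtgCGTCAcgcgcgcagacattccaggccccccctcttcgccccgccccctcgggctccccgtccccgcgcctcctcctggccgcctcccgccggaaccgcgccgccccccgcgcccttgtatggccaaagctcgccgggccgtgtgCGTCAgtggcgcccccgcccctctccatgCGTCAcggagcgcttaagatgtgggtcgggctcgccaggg
Fos: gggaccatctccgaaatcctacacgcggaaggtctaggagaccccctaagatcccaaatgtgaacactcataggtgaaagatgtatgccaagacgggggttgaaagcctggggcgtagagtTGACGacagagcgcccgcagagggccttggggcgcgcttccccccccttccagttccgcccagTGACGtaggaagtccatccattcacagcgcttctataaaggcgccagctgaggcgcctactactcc
Junb: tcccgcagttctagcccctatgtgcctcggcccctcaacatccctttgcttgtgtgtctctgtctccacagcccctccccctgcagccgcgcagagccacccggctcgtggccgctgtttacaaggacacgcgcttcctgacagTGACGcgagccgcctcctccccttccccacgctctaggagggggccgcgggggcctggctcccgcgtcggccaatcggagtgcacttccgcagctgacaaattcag
Egr4: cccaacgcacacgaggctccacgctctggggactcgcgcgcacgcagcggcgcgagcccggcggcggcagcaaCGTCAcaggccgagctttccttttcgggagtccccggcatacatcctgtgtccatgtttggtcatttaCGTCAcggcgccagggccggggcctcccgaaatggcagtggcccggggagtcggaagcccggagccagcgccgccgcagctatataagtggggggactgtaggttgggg

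The CRE core was found in the single window of 5 genes and in 3 of the 5 windows of Egr2, so in a window of all 6 genes, against 19.8% of 27025 genes in the table with a match in any window. The members' windows held from 54% (Egr2) to 74.4% (Nr4a1) G and C, and the shares over all genes were not matched for this. Nr4a1 held 4 copies, with first bases at -233, -213, -69 and -40 from the start site, and Fos held 2, with first bases at -129 and -66. Egr4 held 2 and Junb 1, so the core was present both in genes with larger negative differences and in genes without. Egr4 and Junb averaged below the array median, so their differences near 0 do not show an unchanged message. The full palindrome TGACGTCA was in no window of the 6 genes and in 1.77% of genes. Within these 250 bases a CArG box, searched on both strands, was found for Egr2 alone (1.62% of genes), and the AP-1 site TGANTCA for none (7.82% of genes). Bases farther upstream were not searched, nor were Egr1, Egr3, Arc and Ier2, which had no window. The form GCGGGGGCG of the EGR site was found for Fosb and Nr4a1 (2.93% of genes) and GCGTGGGCG for none (0.62% of genes). It overlaps the GC box core GGGCGG, which 4 of the 6 genes held (35.4% of genes). These matches describe letters in a window of 250 bases and are no evidence of binding.

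Among the nuclear factors, Nr4a1 had the largest negative change of the 10. Its log2 values were 6.62 at the lowest, 6.90 at the median and 7.02 at the highest in diabetic retinas, against 6.96, 7.18 and 7.64 in control retinas. The groups overlapped, with 3 of 6 diabetic retinas below the lowest control and 5 of 6 controls above the highest diabetic retina. The change was -0.40 ± 0.12 (SE, n = 6 per group; 0.757-fold), with a 95% interval from -0.66 to -0.14, and it did not pass over all genes (limma, adjusted p = 0.0840). Nr4a1 was variable among animals of 1 group: its within-group SD of 0.22 was larger than that of 97.6% of genes at or above the array median. A more negative change was found for 26 of the 24570 genes.

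Egr1, the zinc finger factor also known as Zif268, had diabetic log2 values of 5.60, 5.76 and 6.09 (lowest, median and highest), against 5.82, 6.11 and 6.44 in control retinas. Diabetic 4 was the highest of its group and stood level with the control mean of 6.09, and 4 of 6 diabetic retinas lay below the lowest control. Its change was -0.31 ± 0.11 (0.805-fold; interval -0.54 to -0.08; limma, adjusted p = 0.122). Its within-group SD of 0.20 exceeded that of 96.3% of genes at or above the array median.

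Fos, the partner of Jun proteins in AP-1, had diabetic log2 values of 5.77, 5.98 and 6.08, against 6.04, 6.20 and 6.40 in control retinas. Control 1, the lowest control, lay among the upper diabetic values, and the other 5 controls lay above every diabetic retina. The change of Fos was -0.26 ± 0.07 (0.837-fold; interval -0.40 to -0.11; limma, adjusted p = 0.0598). That p moved to the other side of 0.05 when dim genes were left out: it was 0.0312 when only the 12382 genes at or above the array median were tested. In that smaller test, which called 3.67% of genes as lower, Nr4a1 passed as well (limma, adjusted p = 0.0363), while Egr1 (0.0631) and Arc (0.0639) did not.

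Arc, the synaptic effector of the 10 genes, fell in diabetic retinas, and by less than the values of the other 3. Its diabetic log2 values were 5.99, 6.07 and 6.11 and its control values 6.11, 6.19 and 6.29. The highest diabetic retina (diabetic 5) and the lowest control (control 5) had the same value, and every other diabetic retina lay below all controls. Arc fell by 0.13 ± 0.03 (0.911-fold; interval -0.20 to -0.06; limma, adjusted p = 0.0462). By exact permutation test (two-sided) p was 0.00433 and 0.0936 after adjustment over all genes. The smallest p of that test was 0.00216, or 0.0762 after adjustment, so it could not have called Arc. Its within-group SD was 0.06, larger than that of 9.93% of genes at or above the array median; those of Nr4a1 and Egr1 lay near the top. The call was lost in 10 of 12 runs that left out 1 array, where the adjusted p reached 0.0909, and it held without diabetic 2 (0.0493) and without control 5 (0.0346). It was also lost with the trend and robust variance model (limma, adjusted p = 0.0736), so that Arc was called in 5 of 19 alternatives in all. None of the 10 genes had groups that did not overlap, against 1.62% of all genes lower and 1.22% higher in diabetic retinas without overlap.

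Ier2 differed in the same direction by a small amount. Diabetic values were 5.52, 5.56 and 5.58, against 5.53, 5.64 and 5.70 in control retinas, and 5 of 6 controls lay above every diabetic retina. The change was -0.07 ± 0.03 (interval -0.13 to -0.02; limma, adjusted p = 0.147). Without control 5, which had the lowest control value, the adjusted p was 0.0505. The spread of Ier2 was 0.03 in diabetic and 0.06 in control retinas (SD, n = 6 each).

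The other members of the AP-1 and Egr families had changes near 0. Junb ranged from 5.64 to 5.83 in diabetic and from 5.58 to 5.74 in control retinas, with a change of 0.05 ± 0.04 (interval -0.03 to 0.12; limma, adjusted p = 0.496). Diabetic 2 held the highest Junb value and control 6 the lowest. Fosb had a change of -0.01 ± 0.02 (interval -0.06 to 0.03; adjusted p = 0.781). Its 6 control values lay within 5.43 to 5.46, whereas the diabetic ones ran from 5.38 in diabetic 5 to 5.52 in diabetic 6.

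Egr2, Egr3 and Egr4, which share the zinc finger domain of Egr1, had changes of -0.02 ± 0.02, -0.02 ± 0.02 and 0.03 ± 0.02, with limma adjusted p-values from 0.568 to 0.736. The outer bounds of their 95% intervals were -0.07 and 0.08. These 3 genes, Fosb, Junb and Ier2 all averaged below the array median of 5.73 over the 12 arrays. At that level an RMA value leaves little room for a decrease, so for these 6 genes a missing call does not show an unchanged message. The 4 genes with the larger negative changes were the 4 whose mean lay at or above the median.

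**Figure D2:**
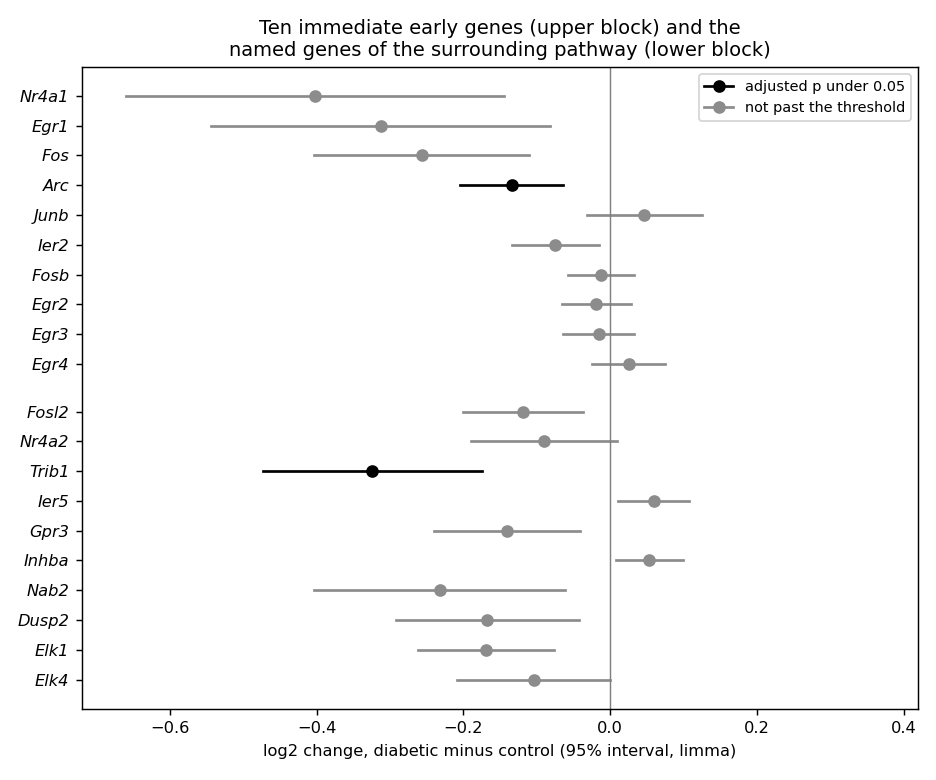
Log2 changes, diabetic minus control, with 95% intervals from limma (n = 6 per group) for the 10 immediate early genes above and for the named genes of the surrounding pathway below. Black marks an adjusted p under 0.05 over 24570 genes: Arc at -0.13 and Trib1 at -0.32 are black, and the intervals of Nr4a1, Egr1 and Fos lie below 0 in grey.

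Around the 10 genes, 71 further genes of the same response were looked at in 5 lists, and all 71 were measured. Of these 1 fell and 0 rose over all genes, where 3.24% of all genes were called. A limma p under 0.05 without adjustment was found for 12 of the 71, against 21.0% of all genes. Of the 71 changes 51 were negative, against 51.8% of all genes, and their median was -0.04. Trib1, a pseudokinase that marks targets for degradation and is itself induced early, was the one that fell. Its log2 values were 7.63, 7.77 and 7.84 in diabetic retinas, against 7.93, 8.01 and 8.38 in control retinas. The groups did not overlap, and the change was -0.32 ± 0.07 (0.799-fold; limma, adjusted p = 0.0310). The call was lost in 5 of 12 runs without 1 array (without diabetic 1, 3 or 4 or control 1 or 3), with adjusted p-values up to 0.0639.

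Of 7 other AP-1 and NR4A factors, 0 passed (1 at an unadjusted p under 0.05) and 5 had negative changes (median -0.03). Fosl2, another Fos-family subunit of AP-1, had a change of -0.12 ± 0.04 (limma, adjusted p = 0.104), and Nr4a2, a nuclear receptor of the same family as Nr4a1, one of -0.09 ± 0.05 (adjusted p = 0.286). Of 24 other primary response genes, Trib1 fell and 16 had negative changes (median -0.03). Ier5 differed by 0.06 ± 0.02 (adjusted p = 0.152). Of 11 neuronal effectors, 0 passed (2 at an unadjusted p under 0.05) and 8 had negative changes (median -0.05). Gpr3, a receptor that raises cyclic AMP, differed by -0.14 ± 0.05 (adjusted p = 0.109) and Inhba, an activin subunit, by 0.05 ± 0.02 (adjusted p = 0.172).

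Feedback genes, which switch the response off, had negative changes for 10 of 10 (median -0.07), against 51.8% of all genes. Of the 10, 0 passed (3 at an unadjusted p under 0.05). Nab2, a repressor of Egr factors that is induced by Egr1, had log2 values of 7.34, 7.49 and 7.84 in diabetic retinas, against 7.57, 7.79 and 7.88 in control retinas. Its change was -0.23 ± 0.08 (limma, adjusted p = 0.121), and without diabetic 2, the highest diabetic retina, it was -0.29 with an adjusted p of 0.0263. Dusp2, a phosphatase that inactivates MAP kinases, differed by -0.17 ± 0.06 (adjusted p = 0.124). Of 19 upstream kinases and factors, 0 passed (2 at an unadjusted p under 0.05) and 12 had negative changes (median -0.04). Elk1, an SRF partner, had diabetic values from 7.77 to 8.01, all below the control values from 8.03 to 8.17. Its change of -0.17 ± 0.04 missed the threshold over all genes (limma, adjusted p = 0.0534) and passed when genes below the array median were left out (0.0459). Elk4 differed by -0.10 ± 0.05 (adjusted p = 0.237).

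The same genes also varied between animals of 1 group. Expressed as deviation from the own group's mean, diabetic 1 and diabetic 3 were below 0 for Nr4a1, Egr1, Fos and Arc alike, and diabetic 2 and diabetic 4 were above 0 for all 4. Among controls, control 1 was below 0 for all 4, being the lowest control for 3 of them, and control 4 was above 0 for all 4. Over the 4 genes the mean deviation, in SDs of each gene, ran from -1.03 in diabetic 1 to 0.94 in diabetic 4 and from -1.29 in control 1 to 1.1 in control 4. Diabetic 6, in which lens and pigment epithelium markers were highest, lay at -0.01. There Fos stood at 0.95, Arc at 0.08, Egr1 at 0.02 and Nr4a1 at -1.09. Nr4a1 departed from the other 3 in diabetic 6, where it was the lowest of its group, and in control 6, where it was the highest.

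**Figure D3:**
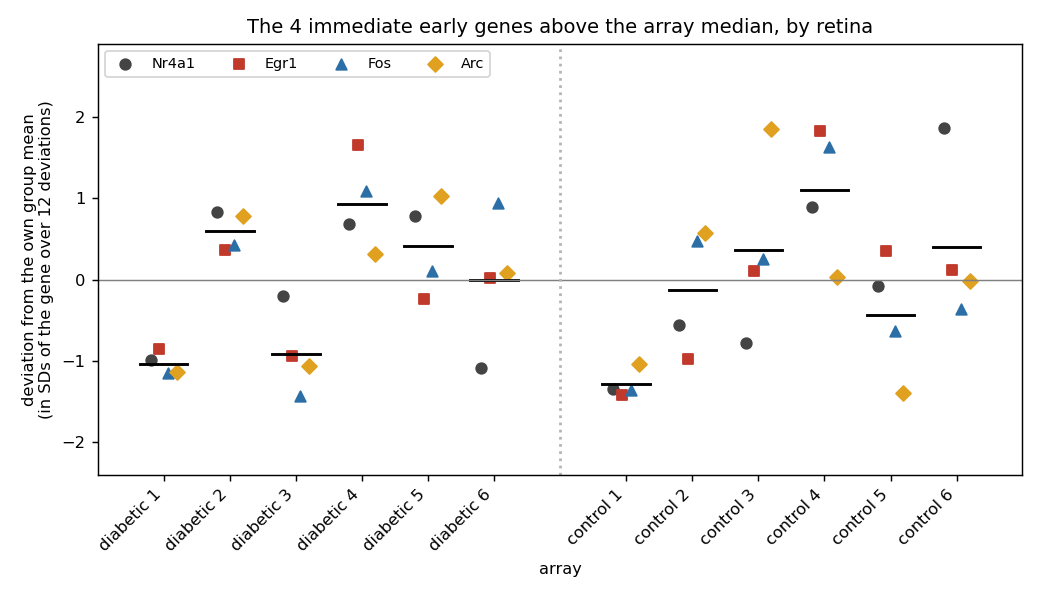
Deviation of each retina from the mean of its own group for Nr4a1, Egr1, Fos and Arc, in SDs of the gene, with diabetic retinas at the left, control retinas at the right and the mean of the 4 genes as a bar. Diabetic 1 (-1.03), diabetic 3 (-0.91) and control 1 (-1.29) lie lowest and control 4 (1.1) and diabetic 4 (0.94) highest.

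Most pairs of these 4 genes were positively correlated over the animals of a group. The median Pearson's r over their 6 pairs was 0.65 in diabetic retinas and 0.44 in control retinas, with 6 and 5 of 6 pairs above 0. The control value was 0.17 without control 1 and 0.21 without control 4. Over all pairs of the 12382 genes at or above the array median, the median r was -0.00018 in diabetic and -0.00052 in control retinas. Over all 45 pairs of the 10 genes the median r was 0.19 in diabetic and 0.09 in control retinas, and 32 and 25 pairs were above 0. The 15 pairs of the 6 genes below the array median had a median r of 0.02 in diabetic and -0.25 in control retinas. Each r rests on 6 animals. Values of 0.8 or more were found for 2 of the 45 pairs in diabetic and 3 in control retinas, and for 3.11% and 3.19% of all gene pairs.

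None of the 90 tests of single pairs (45 in each group, exact permutation over 720 pairings, two-sided) passed after Benjamini-Hochberg adjustment. With 720 pairings, no pair could have passed by itself over 90 tests, however strong its correlation. The missing calls therefore do not show that the genes are unrelated. The smallest adjusted p was 0.425 for Pearson's r and 0.500 for Spearman's rho. Unadjusted p was under 0.05 for 6 of 90 by either measure, and up to 0.05 of unrelated pairs pass that limit. Some of these pairs held Ier2, a dim member. Egr2 and Ier2 had r = 0.92 in diabetic retinas (exact permutation p = 0.0181, adjusted p = 0.425) and -0.52 in controls. Arc and Ier2 had r = 0.90 in controls (exact permutation p = 0.0153, adjusted p = 0.425) and 0.23 in diabetic retinas. Egr4 and Ier2 had r = 0.89 in controls (exact permutation p = 0.0236, adjusted p = 0.425) and -0.03 in diabetic retinas. The pair of Fos and Egr1 had r = 0.85 (exact permutation p = 0.0222, adjusted p = 0.425) and rho = 0.94 (exact permutation p = 0.0167, adjusted p = 0.500) in diabetic retinas. Without diabetic 1 and diabetic 3, the retinas farthest from the median of Fos, r was 0.70. In control retinas the pair had r = 0.72 (exact permutation p = 0.103, adjusted p = 0.791) and rho = 0.43 (exact permutation p = 0.419, adjusted p = 0.860). Without control 1 and control 4, r was -0.78, so in controls the positive relation rested on those 2 retinas.

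Egr3 and Arc ran in opposite directions in both groups. In diabetic retinas r was -0.86 (exact permutation p = 0.05, adjusted p = 0.643) and rho -0.60 (exact permutation p = 0.242, adjusted p = 0.844), and r was 0.14 without diabetic 1 and diabetic 3, so the relation rested on those retinas. In control retinas r was -0.84 (exact permutation p = 0.0389, adjusted p = 0.583) and rho -0.89 (exact permutation p = 0.0333, adjusted p = 0.500), and r was -0.78 without control 1 and control 3. Egr3 spans only 0.11 log2 units over all 12 retinas, and its mean is 1 of the 6 under the array median. Of the 45 pairs, 26 had the same sign in both groups and the rest did not. Among the rest, Fos and Egr4 had r = 0.91 in control retinas (exact permutation p = 0.0125, adjusted p = 0.425) and -0.37 in diabetic retinas (exact permutation p = 0.461, adjusted p = 0.791). No difference between the groups was tested.

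**Figure D4:**
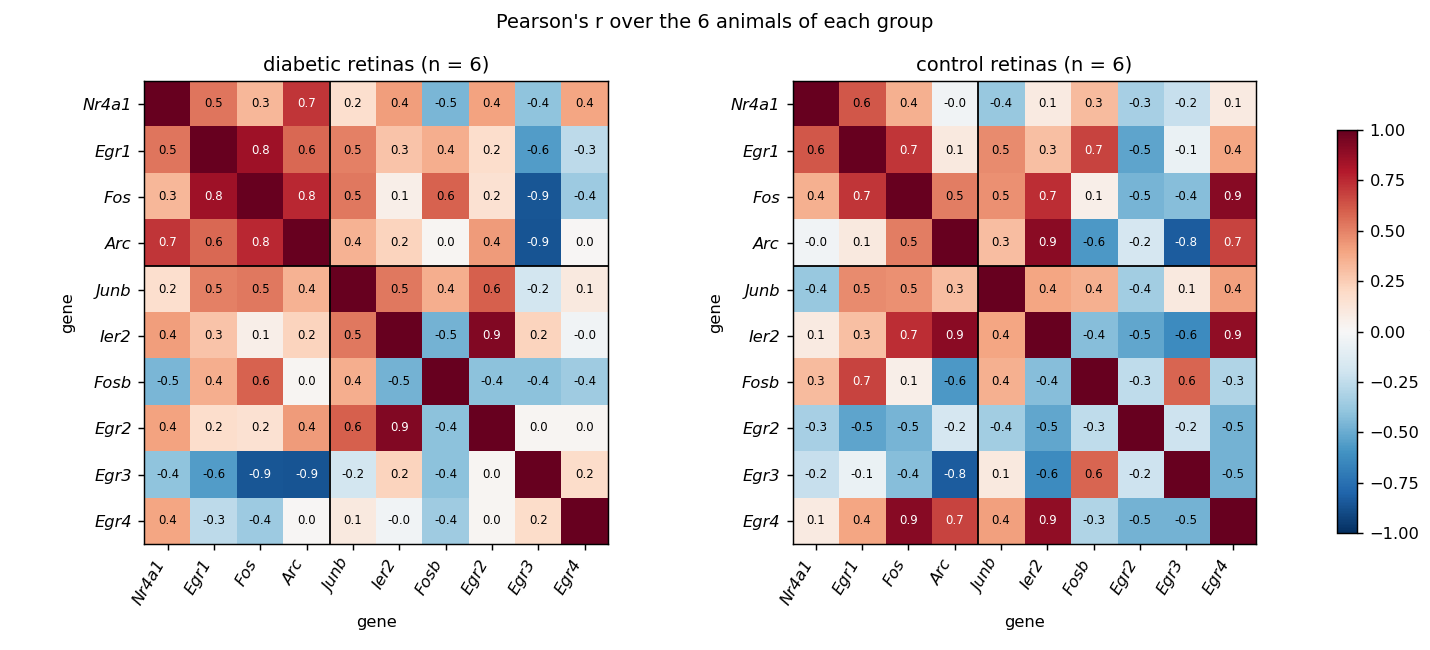
Pearson's r for each pair of the 10 genes over the 6 diabetic retinas (left) and the 6 control retinas (right), with the genes at or above the array median in the upper left block of each map. In that block 6 of 6 pairs are positive in diabetic and 5 of 6 in control retinas, while the rest of each map holds both signs.

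**Figure D5:**
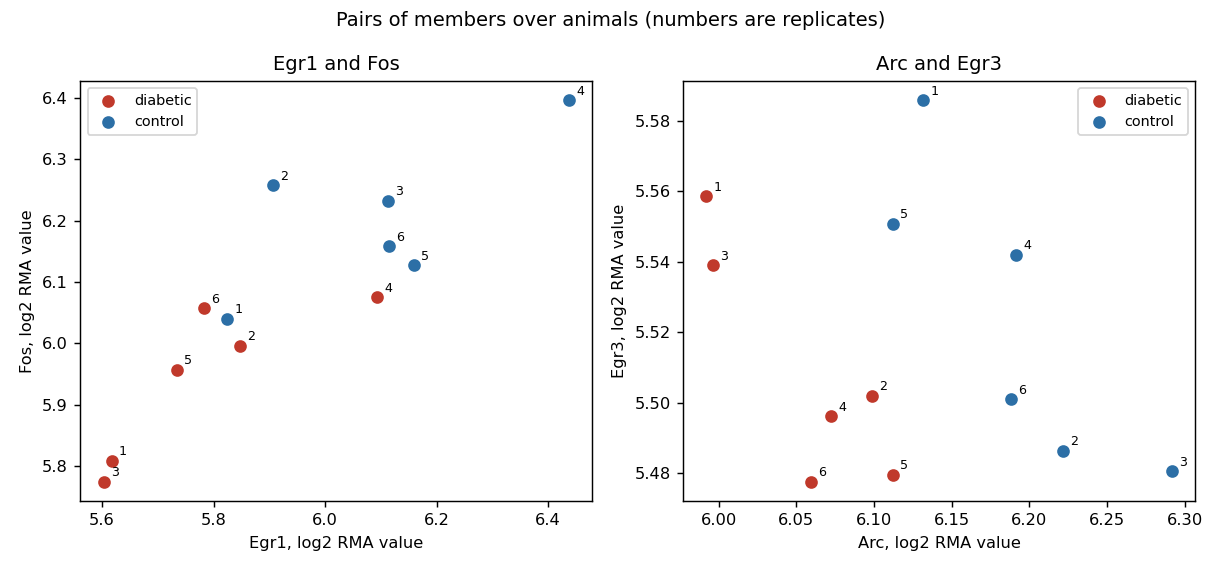
Log2 RMA values of Fos against Egr1 (left) and of Egr3 against Arc (right), with 1 point per retina, replicate numbers beside the points, and diabetic and control retinas in separate colours. Over all retinas of a group, r was 0.85 in diabetic and 0.72 in control retinas for Fos and Egr1. It was -0.86 and -0.84 for Egr3 and Arc, with diabetic 1 and diabetic 3 at the ends of both diabetic clouds. The control r of Fos and Egr1 was -0.78 without control 1 and control 4. The diabetic r of Egr3 and Arc was 0.14 without diabetic 1 and diabetic 3. No pair passed after adjustment.

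As a description of the company these genes keep, all other genes at or above the array median were ranked by the Pearson correlation of their group-centred values over 12 arrays with the mean of the 10 members. The most alike was Mettl3, the catalytic subunit of the RNA N6-adenosine methyltransferase, with r = 0.91 (0.94 in diabetic and 0.88 in control retinas). It was followed by Fastkd5 (0.87), Tap1 (0.86), Zfp661 (0.86), Snx12 (0.84), Mrpl24 (0.84), Slc20a1 (0.83), Zfp930 (0.83), Cdkn2aip (0.83) and Blzf1 (0.82). As the top of 12378 ranked genes, they are given with no test. None of the 10 belonged to the 5 pathway lists, and none passed the test between the groups, where their changes ran from -0.11 to 0.07 (limma, adjusted p from 0.153 to 0.977). Of the 71 pathway genes the most alike were Zfp36 (0.71), which encodes the mRNA-destabilizing protein tristetraprolin, Homer1 (0.68), a postsynaptic scaffold, and Plk3 (0.67), a polo-like kinase. Zfp36 and Plk3 averaged below the array median, so they were not among the ranked genes. Of the members themselves, Fos (0.81), Egr1 (0.78) and Junb (0.76) lay closest to the mean that they help to form, and Nr4a1 stood at 0.46. Fosb (0.17) and Egr2 (0.02) were little related to that mean and Egr3 ran against it (-0.43), so it does not stand for every member. Of the 10 equally weighted members, 6 averaged below the array median. The mean of the 10 differed in sign from that of the 4 brighter members in diabetic 5 (-0.17 against 0.42) and control 6 (-0.13 against 0.40).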

How the data were processed

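The deposited table holds log2 values made by the authors with RMA, per the submitters' processing notes, for 24973 Entrez gene numbers on 12 arrays, 1 per mouse. The array, the probe set definition and the version of RMA are not given in the sources used here. The sorted values of all arrays were identical (largest difference 0), so a shift of most genes in 1 direction would be hidden. Lines were named with the platform annotation (24015) and RefSeq GRCm38.p6 (559 more), 399 unnamed lines were left out, and for repeated symbols the line of highest mean was kept.

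Changes were tested with limma 3.58.1 (R 4.3.3; lmFit and eBayes, two-sided), adjusted by Benjamini-Hochberg over 24570 genes at a threshold of 0.05, with no filter on dim genes. Intervals are 95% intervals from limma, errors of changes are SEs, and errors of levels are SDs. Correlations within groups were tested by exact permutation. On simulated data with 24570 genes and 6 arrays against 6, 54.0% of genes changed 1.1-fold, 86.0% of those changed 1.2-fold and 98.0% of those changed 1.5-fold were recovered, with no correlation between genes. The changed genes were drawn at random from all genes, whose median within-group SD was 0.06. Nr4a1 and Egr1 had SDs of 0.22 and 0.20, so these rates do not hold for members as variable as they are. Precision is limited by the number of arrays.

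The members, the gene lists and the tests were chosen with earlier results of these data known. Named were all 10 members, in each pathway list every gene past the test and the 2 of smallest p, and the 10 genes most like the members. Replicate numbers did not pair the arrays: same-numbered arrays deviated from their group means with correlations from -0.16 to 0.17. Alternatives covered the variance model, array weights, a replicate block, filters on dim genes, unnamed lines, an exact permutation test over the 924 relabelings, rank correlation and each array left out in turn; the Spearman test of pairs and the settings for pathway genes were chosen after seeing the data.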

Additional observations from a re-analysis of the deposited data

Results flagged for a closer look

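Inhba, an activin subunit among the neuronal effectors, had 1 diabetic retina apart from the other 5. Diabetic 3 stood at 5.57, with the next diabetic retina at 5.49, a ratio of gap to range of 0.680, above Dixon's 95% critical value. Among 66 groups of 6 arrays looked at (members, named pathway genes and marker means), it was the 1 past the limit, where chance gives about 1 in 20, and 0 of the 20 groups of immediate early genes were.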

How the results depend on the processing

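The directions of all 10 immediate early genes and of the 10 named pathway genes held under every alternative run, but calls did not. Among the 10 members, 1 was called (Arc). The count stayed at 1 with array weights and with all lines of the table (Arc), and with the trend and robust variance model and with the replicate block (Fos in place of Arc). It was 2 over genes at or above the array median (Fos, Nr4a1) and 2 at or above the 25th percentile (Fos, Arc). It was 0 by exact permutation test adjusted over all genes, which could call no gene at its smallest p, and 0 to 1 without 1 array. With the block, Fos had an adjusted p of 0.0466 and Arc of 0.101; the numbers are only shared labels. With the trend and robust variance model they had 0.0325 and 0.0736. The median change of the members was -0.28 over the 4 at or above the array median, against -0.05. Of the pathway genes 1 was called, but 2 over genes at or above the array median and at or above the 25th percentile (Trib1, Elk1), 0 by exact permutation test and 0 to 2 without 1 array. Over all genes the count of 797 was 506 with the replicate block, 0 by exact permutation test (smallest adjusted p 0.0762, with 5165 genes at an unadjusted limma p under 0.05), 325 (without diabetic 4) to 835 (without control 5) without 1 array, and 797 to 903 under the remaining settings. The median r of all 45 pairs in controls was -0.029 by Spearman's rho, against 0.09 by Pearson's r. For the 4 genes at or above the array median it ran from 0.50 to 0.82 in diabetic retinas without 1 array, and from 0.17 (without control 1) and 0.21 (without control 4) to 0.63 in controls. The reason for these shifts was not tested. The table gives no signal over background, so detection of the 6 dim members could not be judged.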
